A study of Mus musculus with 10 samples.

Results

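Early consequences of MOF loss were compared across 4 compartments of mouse back skin at embryonic stage E15.5, using single-cell RNA sequencing libraries from 2 control and 2 MOF cKO embryos. The MOF cKO embryos were MOF fl/fl/K14Cre on a mixed C57Bl/6J and CD-1 background, and the controls were littermates that the labels name only as Control. Krt14-Cre acts in epithelial progenitors of the skin, so fibroblasts, endothelial cells and macrophages are not its targets. Total back skin was dissociated with collagenase and then trypsin, and transcripts were counted from their 3′ ends with the 3′ v3.1 chemistry. Of the pair of MOF cKO embryos, cKO5 was described in the study as homogeneous and cKO6 as mosaic for loss of H4K16ac in the epidermis, so the embryos are not equivalent as models of epithelial loss. Each library is 1 embryo, and embryos rather than cells were the replicates.

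Cells were kept when more than 1000 but fewer than 6000 genes were detected in them and mitochondrially encoded genes took less than 10% of their unique molecular identifiers (UMIs). These were 38345 of the 55482 kept cells in all 10 libraries of the series. The cells of each compartment were chosen by their own transcripts of a few genes. Epithelial cells held at least 10 UMIs of Krt5 and Krt14 together (8240 cells). Fibroblasts held at least 30 UMIs of Col1a1 and Col3a1 together and fewer than 10 of the keratins (23917 cells). Endothelial cells had at least 2 of Pecam1, Cdh5 and Kdr (647 cells), and macrophages at least 2 of C1qa, C1qb and Csf1r (820 cells). UMIs were summed per library in each compartment and are given as CPM, the usual scaling of counts by the total of the sum. The 10 genes that set the gates are not results in the compartment that they define.

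MOF, encoded by Kat8, acetylates lysine 16 of histone H4 (H4K16ac), a mark of open and transcribed chromatin, and works in the MSL and NSL complexes. In the embryonic skin the epithelium forms a stratifying epidermis and hair placodes, and a primary cilium on its progenitors receives hedgehog signals. Dermal macrophages clear debris and carry innate sensors, including the interferon pathway, while fibroblasts and endothelial cells build the matrix and vessels beneath.

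The libraries were deep and similar in quality over all kept cells. Total UMIs ranged from 149503071 to 203392303 per library, kept cells from 8396 to 10653, the median UMIs of a kept cell from 12040 to 14835 and the median mitochondrial share from 3.75% to 4.57%. In epithelial cells this share was 4.85% and 4.55% in controls, 4.09% in cKO5 and 5.38% in cKO6. The upper limit on genes left out 134 and 231 cells with enough keratin UMIs for the epithelial gate in controls, 80 in cKO5 and 341 in cKO6. The part of either in the differences between cKO5 and cKO6 was not tested. The summed UMIs ranged from 22705625 to 57606646 in epithelial cells and from 53497759 to 96779376 in fibroblasts, but only from 2239974 to 5524800 in endothelial cells and from 2010276 to 4290733 in macrophages. Between 1107 and 1393 cells per library met no gate and 32 to 73 met a pair of gates. By its rule the fibroblast gate left out cells of the epithelial gate, so that pair could not occur. Epithelial cells that also held at least 30 UMIs of Col1a1 and Col3a1 were 173 of 2635 in control 2 and 193 of 2896 in control 3. They were 138 of 1061 in cKO5 and 151 of 1648 in cKO6, and their part in the epithelial values was not tested. Pairs of libraries shared 41 to 67 cell barcodes. The compartments were described on markers that the gates did not use, and none of the 10 epithelial, 8 fibroblast, 8 endothelial or 8 macrophage markers left was at 0 in its own compartment. These markers were not at 0 in the other compartments either, so their presence alone does not check the gates. The 8 macrophage markers summed to 13490 and 12790 CPM in control and 10690 and 10990 CPM in MOF cKO macrophages, and to at most 79.7 CPM in fibroblasts. In their own compartments, the epithelial markers were also lower, at 7751 and 8506 CPM in controls and 5788 and 6965 CPM in MOF cKO. The fibroblast markers were higher (11420 and 11380 CPM against 13520 and 14100 CPM). The endothelial markers overlapped between groups (2872 and 2498 CPM against 2508 and 2429 CPM). Near the edges of the gates, 35 to 69 cells per library had 10 to 19 keratin UMIs and 18 to 155 cells had 5 to 9, whereas 551 to 674 cells had 30 to 59 collagen UMIs and 228 to 300 cells had 15 to 29. For the endothelial gate, 7 to 25 cells per library had exactly 2 of the genes and 347 to 662 had 1, and for the macrophage gate these were 16 to 36 and 126 to 367 cells.

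Promoter sequences of interferon and ciliary genes, groups that are described below, are given first. The interferon-stimulated response element (ISRE, searched on both strands as GAAA, any 2 bases and GAAA) was present in 13 of the 26 interferon response genes with a promoter sequence (50%), against 3.99% of 27025 mouse promoters of the same 300-base length, which ran from 250 bases before to 50 bases after each start. Of the 10 with a promoter sequence that were called higher in macrophages, 4 held it (40%), so it was no more frequent among the called members than in the list. The 150 bases before the start of 4 interferon genes that rose in macrophages are shown in the direction of the gene, from the RefSeq annotation of GRCm38.p6, with matches in capitals. Isg15 lies on the minus strand at chr4:156200819-156200968 and has 3 overlapping matches, Gbp2 on the plus strand at chr3:142620513-142620662, B2m on the plus strand at chr2:122147537-122147686 and Irgm1 on the minus strand at chr11:48871421-48871570 with 2 matches.
Isg15: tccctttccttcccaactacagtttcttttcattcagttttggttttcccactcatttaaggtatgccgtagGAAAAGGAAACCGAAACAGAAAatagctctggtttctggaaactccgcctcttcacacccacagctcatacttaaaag
Gbp2: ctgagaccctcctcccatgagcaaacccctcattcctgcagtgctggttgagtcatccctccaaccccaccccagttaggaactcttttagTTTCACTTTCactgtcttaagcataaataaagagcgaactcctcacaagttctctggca
B2m: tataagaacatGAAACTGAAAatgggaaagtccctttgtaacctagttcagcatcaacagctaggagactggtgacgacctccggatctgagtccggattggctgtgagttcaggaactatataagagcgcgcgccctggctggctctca
Irgm1: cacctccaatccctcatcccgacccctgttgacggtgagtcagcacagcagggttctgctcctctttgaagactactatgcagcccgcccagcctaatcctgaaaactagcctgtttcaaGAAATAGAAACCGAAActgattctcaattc

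The X-box, the element bound by RFX factors at ciliary genes, was searched on both strands as GTTNCCNNG followed by GNAAC. It was present in 6 of the 64 ciliary genes with a promoter sequence (9.38%), in 5 of the 54 that were lower in the epithelium without cKO6 (9.26%) and in 0.529% of all promoters. The left part alone, which every full match also holds, was present in 35 of these 64 genes (54.7%) and in 18.8% of all promoters. Mks1 (plus strand, chr11:87853065-87853214), Ttc26 (plus strand, chr6:38381374-38381523) and Bbs7 (minus strand, chr3:36613390-36613539) are shown because they carry the full element and lay low in the epithelium of cKO5.
Mks1: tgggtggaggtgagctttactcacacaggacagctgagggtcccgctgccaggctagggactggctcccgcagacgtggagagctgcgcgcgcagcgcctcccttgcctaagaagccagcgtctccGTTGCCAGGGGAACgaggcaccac
Ttc26: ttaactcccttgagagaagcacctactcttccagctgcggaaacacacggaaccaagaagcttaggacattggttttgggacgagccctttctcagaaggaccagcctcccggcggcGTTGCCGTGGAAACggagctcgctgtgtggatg
Bbs7: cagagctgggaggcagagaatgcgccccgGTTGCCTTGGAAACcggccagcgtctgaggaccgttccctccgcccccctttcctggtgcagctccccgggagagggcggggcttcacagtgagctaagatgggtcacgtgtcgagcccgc

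Fewer cells of the MOF cKO libraries met the epithelial gate. Epithelial cells made up 31.4% and 31.8% of kept cells in control 2 and control 3, against 10.4% in cKO5 and 15.47% in cKO6. The groups did not overlap, and the means differed by -18.6 percentage points (31.57% ± 0.269 against 12.95% ± 3.57, SD, n = 2 each). Fibroblasts had a share of 52.1% and 53.3% in the controls, and of 71.6% and 69.4% in cKO5 and cKO6. Since shares must add up, the fibroblast difference of 17.8 points was only 3.97 points when expressed as a share of non-epithelial cells. The endothelial share was 1.49% and 1.26% in the controls against 2.51% and 1.43% in cKO5 and cKO6, and the macrophage share 2.29% and 1.33% against 2.43% and 2.44%. The groups overlapped for endothelial cells and not for macrophages, whose MOF cKO share lay 0.627 points higher. As a share of non-epithelial cells, macrophages were at 3.33% and 1.95% in the controls and at 2.71% and 2.89% in cKO5 and cKO6, so that the groups overlapped and the difference was 0.159 points. With 2 libraries per group, the exact two-sided permutation test over 6 arrangements cannot give a p below 0.333, which was its value for epithelial cells, fibroblasts and macrophages (0.667 for endothelial cells). The gates rest on levels of Krt5, Krt14, Col1a1 and Col3a1, and dissociation can favour some cells, so a lower share and fewer cells in the tissue cannot be told apart. A summed level described below does not by itself tell fewer cells of a type within a compartment from less RNA per cell. Which of these applied was not tested.

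**Figure D1:**
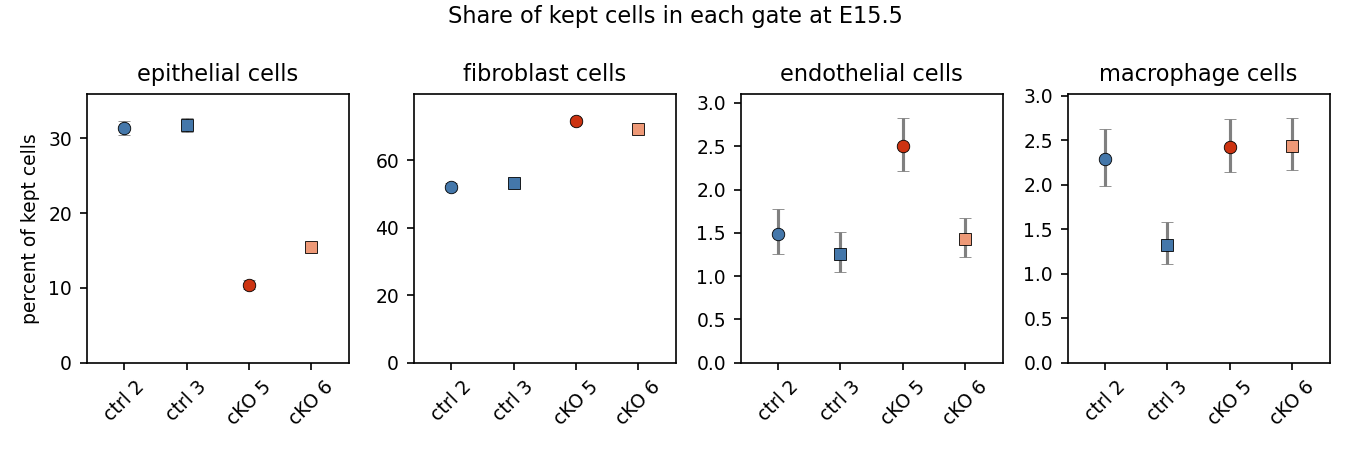
Share of kept cells in each compartment (percent, y axis) for the 4 E15.5 libraries (x axis), with 95% Wilson intervals that cover counting error only. The epithelial share is 31.4% and 31.8% in the controls and 10.4% and 15.47% in the MOF cKO libraries, and the fibroblast share is higher in both MOF cKO libraries.

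Kat8 itself, at chr7:127912516-127925837 on the plus strand of GRCm38, did not pass the edgeR quasi-likelihood test in any compartment. In epithelial cells it was at 13.0 and 14.0 CPM in the controls and 13.0 and 10.0 CPM in cKO5 and cKO6 (log2 fold change -0.08 ± 0.27, SE, adjusted p = 0.895). In fibroblasts it was at 9.18 and 9.62 CPM in controls and 6.83 and 5.98 CPM in MOF cKO (adjusted p = 0.194), and the groups did not overlap. Reads were taken from the 3′ end of the transcript and the position of the deleted exons was not examined, so these counts do not check the deletion. In every comparison below, the test is edgeR's quasi-likelihood test on summed UMIs with Benjamini-Hochberg adjustment over all genes tested, a gene is called at an adjusted p under 0.05, and fold changes are on the log2 scale, MOF cKO over control.

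In the epithelium, no gene of 14623 passed this test (0% called), while 1360 genes (9.3%) had an unadjusted p under 0.05 and DESeq2 called 132. Among genes at 30 CPM or more, the median absolute log2 difference between replicates was 0.0536 in controls and 0.241 in MOF cKO. In fibroblasts these were 0.0532 and 0.0806. The MOF cKO epithelia therefore differed more from each other than the controls did, in the compartment where the embryos were described as homogeneous and mosaic. In the epithelium the groups did not overlap for 54.2% of genes, with MOF cKO above both controls for 24.7% and below them for 29.6%, and the member counts below are read against these shares. Such shares, member counts and library medians use CPM divided by the TMM normalization factor of each sum. Printed CPM are not divided by it, so a printed value can lie on another side of the controls. Fitting the epithelium without cKO6 called 7013 genes of 15413 (45.5%), 20.8% higher and 24.7% lower, and without cKO5 it called 14 (0.0916%). Both fits have a lone MOF cKO sample, which is assumed to vary as little as the controls, so they describe 1 embryo each and not the genotype.

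Genes of intraflagellar transport (IFT) and its motors, which build the cilium, lay lower in the epithelium of both MOF cKO embryos, far more so in cKO5. Of 31 tested members, 27 were below both controls and none was above them, with a median log2 fold change of -0.75 against -0.01 over all genes. Per library, the members' median difference from the control mean was -1.11 in cKO5 and -0.257 in cKO6. Ift74, a core IFT subunit, was at 46.4 and 43.3 CPM in controls and 7.14 and 29.6 CPM in cKO5 and cKO6 (-1.23 ± 0.56). Ift88, needed for cilium assembly, was at 15.4 and 14.9 CPM in controls and 4.45 and 13.1 CPM in MOF cKO. Kif3a, the kinesin motor, was at 26.3 and 27.0 CPM against 10.7 and 22.7 CPM. In each of these, cKO6 lay between cKO5 and the controls. Ift20, the IFT subunit that also works at the Golgi, was at 92.6 and 93.3 CPM in controls and 89.9 and 84.9 CPM in MOF cKO, and did not follow the others. Without cKO6, 29 of 31 members were called lower, and only Ift20 was called higher, which rests on the TMM factor of the cKO5 sum (0.8895 against 1.0452 and 1.0247 in controls), since its CPM in cKO5 lay below both controls.

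The transition zone, BBSome and basal body genes, which gate and traffic cargo into the cilium, showed the same order. Of 43 members, 33 lay below both controls and 1 above (median -0.67), with medians of -1.03 in cKO5 and -0.187 in cKO6. Mks1, a transition zone protein whose promoter is shown above, was at 4.87 and 3.99 CPM in controls and 0.617 and 3.25 CPM in MOF cKO. Ttc26, an IFT component, was at 1.76 and 1.27 CPM in controls and 0.132 and 1.19 CPM in MOF cKO, and Bbs7, a BBSome subunit, at 5.27 and 5.07 CPM against 2.33 and 3.68 CPM. All 3 were lowest in cKO5. Of 15 hedgehog pathway members, whose signal runs through the cilium, 9 lay below and 4 above both controls. The ligand Shh was at 15.4 and 10.5 CPM in controls and 2.51 and 6.30 CPM in MOF cKO (-1.46). In the other compartments the IFT medians of cKO5 and cKO6 were -0.0253 and -0.0575 in fibroblasts, -0.214 and -0.147 in endothelial cells and -0.365 and -0.331 in macrophages. The cKO5 median was lowest in the epithelium, and the cKO6 median was lowest in macrophages. In fibroblasts Ift74 was at 45.5 CPM in both controls and at 43.0 and 39.8 CPM in MOF cKO. Without cKO6, the contrast of the epithelial change with the mean change of the other 3 compartments called 21 of the IFT genes lower and none higher, against 11.9% of all genes lower.

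**Figure D2:**
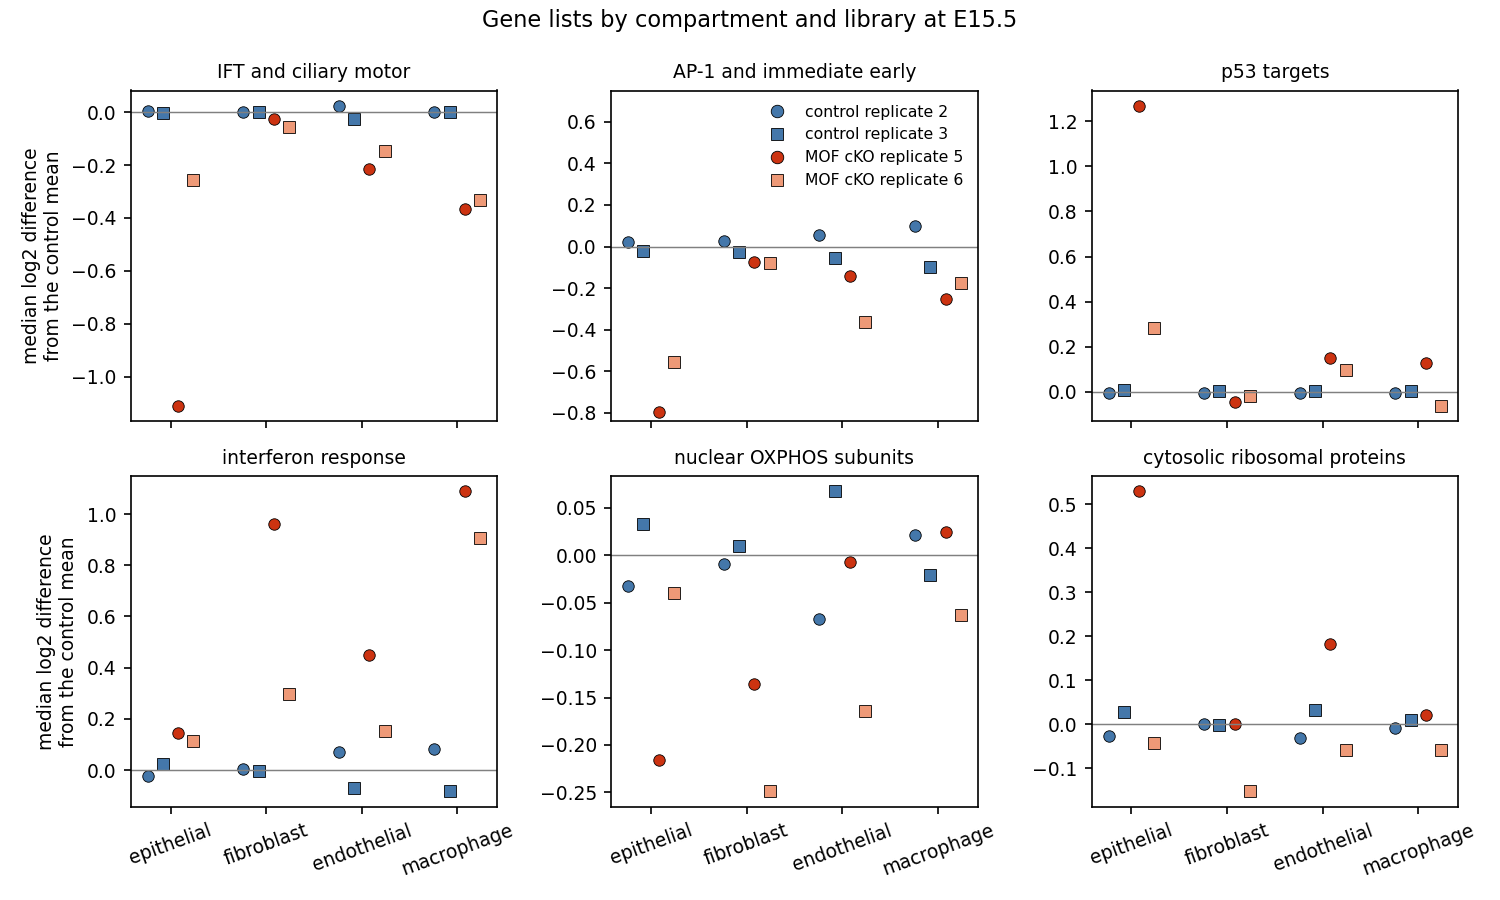
Median log2 difference from the control mean (y axis) over the tested members of 6 gene lists, for each library (points) in each of the 4 compartments (x axis). In the epithelium the IFT median is -1.11 in cKO5 and -0.257 in cKO6, and the interferon medians in macrophages are 1.09 and 0.905.

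AP-1 and immediate early genes, the transcription factors induced within minutes of a stimulus, lay lower in the epithelium of both embryos. Of 28 members, 24 were below both controls and none above (median -0.69), and the library medians were -0.794 in cKO5 and -0.555 in cKO6. Their summed level was 17220 and 16240 CPM in controls, 8135 CPM in cKO5 and 11590 CPM in cKO6. Fosl1, an AP-1 subunit of keratinocytes, was at 41.5 and 39.4 CPM in controls and 8.02 and 9.60 CPM in MOF cKO (-2.08 ± 0.13, adjusted p = 0.390). Atf3, a stress-induced factor of the same family, was at 1696 and 1576 CPM in controls and 287 and 578 CPM in MOF cKO (-1.83 ± 0.27). In both genes the gap between the groups was wider than the gap between the replicates, yet neither passed across all genes. Egr3, an immediate early zinc finger factor, was at 35.9 and 28.9 CPM in controls and 10.0 and 10.3 CPM in MOF cKO (-1.54 ± 0.18). Fos was at 3632 and 3392 CPM in controls and 1490 and 2526 CPM in MOF cKO (-0.71), Jun at 2981 and 2907 CPM against 1475 and 2238 CPM (-0.56), and Egr1 at 1506 and 1485 CPM against 1001 and 1192 CPM. These genes also respond to tissue dissociation, whose part in the result was not tested. In fibroblasts Fos was at 3423 and 3192 CPM in controls and 3119 and 3363 CPM in MOF cKO, with overlapping groups. The list medians of cKO5 and cKO6 were -0.0725 and -0.0793 in fibroblasts, -0.142 and -0.362 in endothelial cells and -0.25 and -0.174 in macrophages. At E16.5, a separate set of 2 control and 2 MOF cKO libraries, the epithelial list had 5 of 27 members called higher and 1 lower (5.82% of all genes called), and Fosl1 rose there (3.19, adjusted p = 0.035) from 4.93 and 2.90 CPM to 32.9 and 13.8 CPM. Of the monocyte and neutrophil markers, 3 of 8 could be tested in the E16.5 epithelium and S100a8 and S100a9, which stressed keratinocytes also make, were called higher. Macrophage markers did not separate the groups there, at 486 and 28.1 CPM in controls and 71.0 and 547 CPM in MOF cKO. Fibroblast markers did, at 9503 and 2366 CPM in controls and 945 and 1343 CPM in MOF cKO, with 10 of 10 values negative (median -1.79) and Dcn called lower. Their part in the E16.5 epithelial calls given here and in the next paragraphs was not tested.

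Irf1, Tnfaip3, Cxcl10 and Klf9 also lay lower in the epithelium, and were among the genes with the smallest p in this compartment. Irf1, a transcription factor of interferon responses, was at 122 and 126 CPM in controls and 41.6 and 55.2 CPM in MOF cKO (-1.24 ± 0.11, adjusted p = 0.503). Tnfaip3, the A20 brake on NF-kB signalling, was at 43.9 and 40.6 CPM in controls and 13.5 and 15.3 CPM in MOF cKO (-1.43 ± 0.13). Cxcl10, an interferon-induced chemokine, was at 209 and 193 CPM against 44.0 and 70.3 CPM (-1.71 ± 0.16). In each gene both MOF cKO values were under the lower control, and none passed the test. The endothelial cells, where Irf1 was highest, had 215 and 191 CPM in controls and 224 and 140 CPM in MOF cKO. The macrophages, where Tnfaip3 was highest, had 80.1 and 69.6 CPM in controls and 82.3 and 84.6 CPM in MOF cKO. Klf9, a glucocorticoid-induced factor, lay lower too (68.9 and 65.6 CPM against 27.4 and 35.4 CPM), next to 124 and 121 CPM in control and 115 and 104 CPM in MOF cKO fibroblasts.

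Targets of p53, which arrest the cell cycle or promote cell death, lay higher in the epithelium and mostly so in cKO5. Of 31 tested members, 19 were above both controls and 4 below (median 0.996), and the library medians were 1.27 in cKO5 and 0.284 in cKO6. Ccng1 (cyclin G1) was at 20.3 and 20.1 CPM in controls and 151 and 48.0 CPM in cKO5 and cKO6 (2.50 ± 0.66). Trp53inp1, which promotes p53 activity, was at 16.6 and 12.3 CPM in controls and 96.4 and 28.9 CPM in MOF cKO. Zmat3, an RNA-binding p53 target, was at 8.40 and 7.93 CPM against 41.9 and 15.1 CPM, and Aen, an apoptotic nuclease, at 26.2 and 27.4 CPM against 87.5 and 43.8 CPM. In all 4 genes cKO6 lay between cKO5 and the controls. Cdkn1a, the cell cycle inhibitor p21, was higher in cKO5 alone, with 89.5 and 94.6 CPM in controls, 308 CPM in cKO5 and 78.7 CPM in cKO6. Without cKO6, 25 of 32 members were called higher and 3 lower. In the independent E16.5 epithelium, 11 of 29 members were called higher and 1 lower (4.68% of all genes higher), among them Ccng1 (2.49, adjusted p = 0.015), Trp53inp1 (2.76, adjusted p = 0.015), Zmat3 (1.95, adjusted p = 0.035) and Cdkn1a (3.18, adjusted p = 0.017). Outside the epithelium at E15.5 the p53 medians of cKO5 and cKO6 were -0.0429 and -0.0181 in fibroblasts, 0.15 and 0.0965 in endothelial cells and 0.126 and -0.0625 in macrophages, where Bax was called higher and Perp lower.

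**Figure D3:**
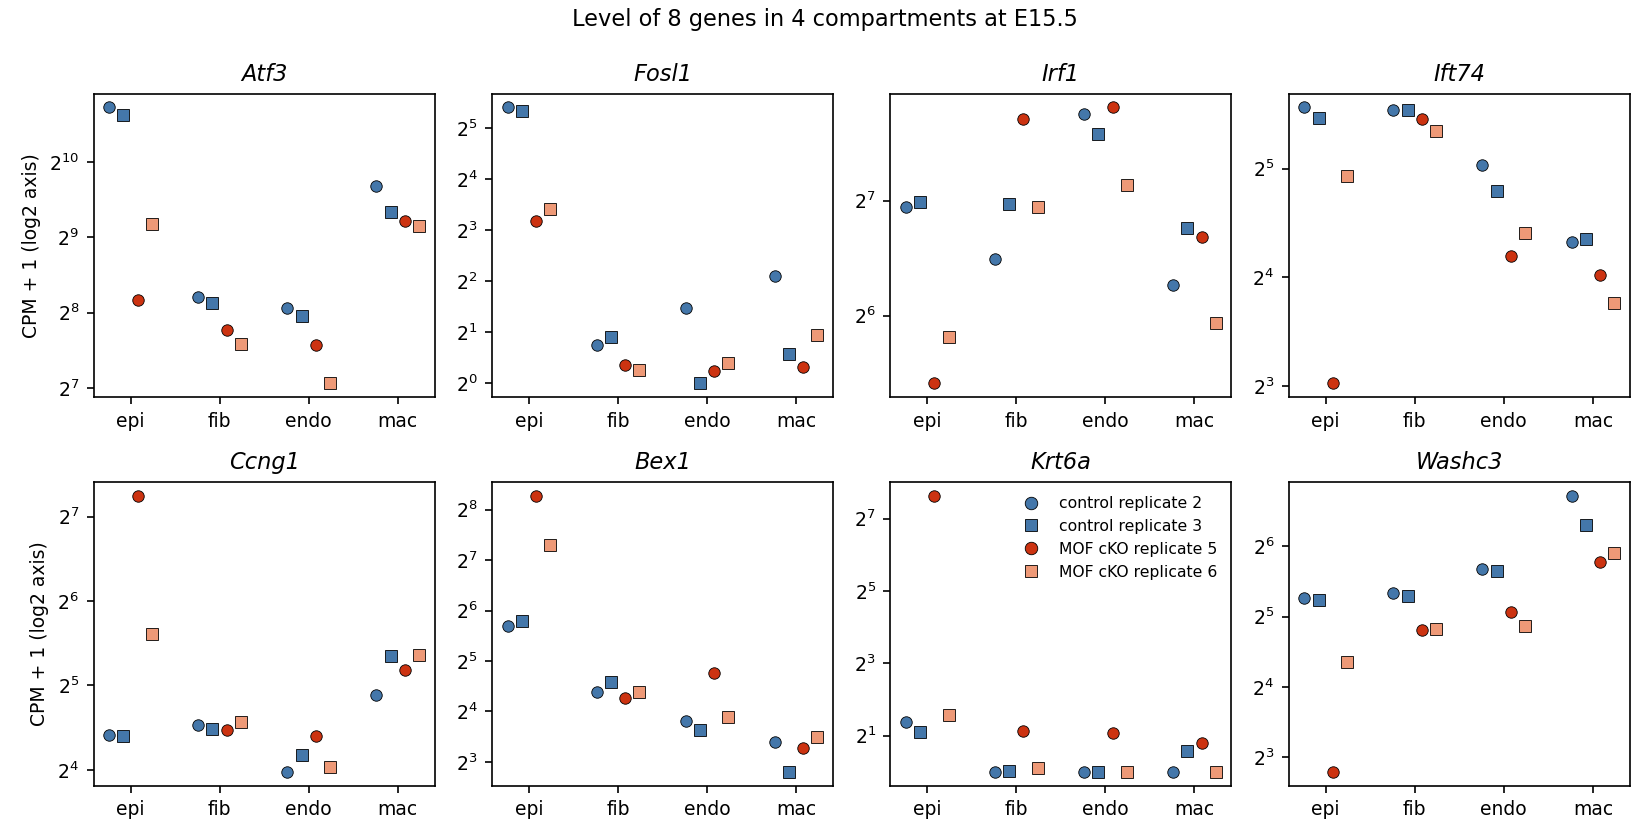
CPM + 1 (y axis, log2 scale) of 8 genes in each library, by compartment (x axis). Atf3, Fosl1 and Irf1 lie low in the epithelium of both MOF cKO embryos, Ift74 and Ccng1 differ most in cKO5, and Krt6a stands at 197 CPM in the epithelium of cKO5 alone.

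Stress keratins and alarmins, which mark wounded or activated keratinocytes, differed strongly between the MOF cKO embryos. Of 15 members tested, 6 lay above both controls and 1 below (median 1.36), with library medians of 1.25 in cKO5 and -0.398 in cKO6. Krt6a was at 1.61 and 1.13 CPM in controls, 197 CPM in cKO5 and 1.94 CPM in cKO6 (6.46 ± 2.23). Krt16, its partner, was at 16.8 and 15.1 CPM in controls, 399 CPM in cKO5 and 47.1 CPM in cKO6 (4.05 ± 1.14). Without cKO6, 20 of 21 members were called higher and 1 lower. At E16.5, with 30 and 39 epithelial cells in the MOF cKO libraries, 16 of 22 members were called higher and none lower, Krt6a (8.06, adjusted p = 0.046) and Krt16 (9.63, adjusted p = 0.0044) among them.

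Epidermal differentiation and hair placode genes were examined next. Of 23 differentiation genes, 11 were above both controls and 1 below (median 1.17), with 1.24 in cKO5 and 0.325 in cKO6, while the list's summed level overlapped between groups, at 1968 and 3108 CPM in controls and 3225 and 2622 CPM in MOF cKO. Lor, a protein of the cornified envelope, was at 15.9 and 14.8 CPM in controls and 45.1 and 26.7 CPM in MOF cKO (1.39). Krt1, the keratin of the first suprabasal layer, varied between the controls themselves (259 and 649 CPM against 830 and 618 CPM). Of 19 placode and hair germ genes, 14 lay below both controls and none above (median -0.53), with -0.457 in cKO5 and -0.346 in cKO6. Edar, the receptor that patterns placodes, was at 15.4 and 16.4 CPM in controls and 8.28 and 12.1 CPM in MOF cKO, and Lef1, a Wnt effector, at 196 and 188 CPM against 137 and 185 CPM. Of these genes none passed the test.

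Genes of fatty acid oxidation, oxidative phosphorylation and the mitochondrial and cytosolic ribosomes differed from the controls in cKO5 epithelium and lay near them in cKO6. Glycolysis and hypoxia genes had epithelial medians of 0.29 in cKO5 and 0.287 in cKO6 (-0.0981 and 0.0981 in the controls). Their medians in cKO5 and cKO6 were -0.0452 and 0.0523 in fibroblasts, 0.223 and 0.248 in endothelial cells and 0.183 and 0.282 in macrophages. Of 27 genes of fatty acid oxidation and aldehyde clearance, 12 lay below and 3 above both controls (median -0.22), with -0.559 in cKO5 and -0.0368 in cKO6. Of 78 mitochondrial ribosome genes, 39 lay below and 7 above both controls (median -0.25), with -0.451 in cKO5 and -0.0321 in cKO6. Of 74 nuclear subunits of oxidative phosphorylation, 34 lay below and 13 above (median -0.09). Of 78 cytosolic ribosomal protein genes, whose many near-identical copies make counts uncertain, 18 lay above both controls and none below, with a median of 0.53 in cKO5 and -0.0438 in cKO6. In fibroblasts, 70 of the 74 oxidative phosphorylation genes lay below both controls and none above, against 22.7% of all genes below, with medians of -0.136 in cKO5 and -0.249 in cKO6. Their median log2 fold change was -0.21, and none passed the test.

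Whether a change belonged to the epithelium was asked of the difference between the epithelial change and the mean change of fibroblasts, endothelial cells and macrophages, in 1 edgeR fit of the 16 sums with a term for each library. No gene of 15486 passed (0% called), 1955 (12.6%) had an unadjusted p under 0.05, and limma on the differences per library also called 0. The smallest adjusted p was 0.0956 and was shared by 8 genes, all with a negative difference, of which 6 are named. Csrnp1, a nuclear factor of the immediate early group, had a difference of -1.33 (58.8 and 56.6 CPM in control and 14.1 and 25.1 CPM in MOF cKO epithelium), while fibroblasts, where it was highest, had 87.8 and 86.7 CPM in controls and 93.2 and 86.8 CPM in MOF cKO. Tspo, an outer mitochondrial membrane protein, had -1.35, Tnfaip3 -1.36, Fosb -0.86, Klf13 -0.76 and the class I histocompatibility gene H2-D1 -0.84. Tspo was at 132 and 94.3 CPM in control and 26.7 and 56.6 CPM in MOF cKO epithelium, against 221 and 199 CPM in control and 296 and 276 CPM in MOF cKO macrophages. Among genes relatively higher in the epithelium, Ccng1 had a difference of 2.27 ± 0.47 (adjusted p = 0.156) and Bex1, a small adaptor protein known from neurons, 1.999 (adjusted p = 0.122). Bex1 was at 50.6 and 54.6 CPM in control and 309 and 157 CPM in MOF cKO epithelium, and rose in the E16.5 epithelium (3.51, adjusted p = 0.0079). Thus no single gene was shown to be epithelial only across both embryos. Without cKO6 the same contrast called 3834 genes of 16046 (23.9%), including 23 of 32 p53 targets higher and 1 lower, and 78 of 78 ribosomal protein genes higher, and without cKO5 it called 61 (0.375%).

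The macrophages, which the Cre does not target, held most of the calls of the edgeR test at E15.5. DESeq2 called 121 genes in macrophages, fewer than in the epithelium or in fibroblasts. The edgeR test called 137 of 10763 genes (1.27%), with 104 higher (0.966%) and 33 lower (0.307%). Interferon response, chemokine and glycolysis genes were among the rises, and genes of macrophage function were among both. The median absolute log2 difference was 0.144 between controls and 0.135 between MOF cKO libraries. The controls varied more than in the epithelium or in fibroblasts, whose sums held far more UMIs. Between the endothelial controls, also of low depth, it was 0.136. The part of depth in this spread was not tested.

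The largest rises among genes at 30 CPM or more were in Spp1, Marco, Gpnmb, Slc13a3 and Saa3. Spp1 (osteopontin), secreted by activated macrophages, was at 0 and 4.97 CPM in controls and 316 and 97.2 CPM in cKO5 and cKO6 (6.58 ± 0.84, adjusted p = 0.00998). Marco, a scavenger receptor for particles, was at 3.29 and 0.497 CPM in controls and 81.1 and 114 CPM in MOF cKO (5.51 ± 0.38, adjusted p = 0.000399). Gpnmb, a glycoprotein of the phagolysosome, was at 2.56 and 1.99 CPM against 60.2 and 42.2 CPM (4.44, adjusted p = 0.00072). Spp1 and Gpnmb were higher in cKO5 and Marco in the mosaic cKO6. Slc13a3, a dicarboxylate transporter, rose by 3.95 (4.76 and 2.99 CPM to 64.8 and 60.1 CPM). Lyz2, the lysozyme of myeloid cells, rose from 1066 and 916 CPM to 2719 and 2262 CPM (1.33, adjusted p = 0.00499). Lgals3, galectin 3, rose from 130 and 58.2 CPM to 386 and 354 CPM (1.95, adjusted p = 0.0197). In each of these genes the groups did not overlap. Lyz2 is also among the monocyte and neutrophil markers given below and makes up most of their sum.

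Interferon response genes were among the macrophage rises. Of 30 members tested, 13 were called higher and none lower, 17 did not pass, 25 lay above both controls and 2 below (25% and 21.2% of all genes), and the median was 1.02 against 0.00 over all genes. Monocyte and neutrophil markers lay higher in the same cells, at 1243 and 1037 CPM in controls and 3104 and 2668 CPM in MOF cKO. Most of this sum was Lyz2. Cells without UMIs of Ly6c2, Plac8, S100a8, S100a9, Retnlg and Ngp are called cells without monocyte or neutrophil UMIs. The filter did not use Lyz2 or Ccr2. In such cells 7 of the 13 interferon genes were called again, and Irf7, Gbp2 and Tap1, given below, lost their calls. The interferon list had library medians of 1.09 in cKO5 and 0.905 in cKO6. Its members summed to 2135 and 2268 CPM in controls and 3774 and 3732 CPM in MOF cKO. Isg15, a ubiquitin-like modifier and the first promoter shown above, was at 18.7 and 12.4 CPM in controls and 82.3 and 64.1 CPM in MOF cKO (2.20 ± 0.23, adjusted p = 0.00499). Irf7, the factor that amplifies type I interferon, was at 14.6 and 13.4 CPM in controls and 51.2 and 39.6 CPM in MOF cKO (1.68, adjusted p = 0.00973). Both MOF cKO libraries lay above both controls in both genes. Among the effectors, Oasl2 rose by 1.70 (12.4 and 12.9 CPM to 47.6 and 34.7 CPM), Gbp2, a guanylate-binding GTPase, by 1.07 (16.1 and 12.9 CPM to 30.6 and 31.2 CPM), and Irgm1, an immunity-related GTPase, by 1.26 (15.7 and 18.9 CPM to 41.0 and 41.5 CPM). The antigen presentation genes followed, with B2m at 626 and 654 CPM in controls and 970 and 1204 CPM in MOF cKO (0.76, adjusted p = 0.0161), Tap1 at 23.1 and 21.9 CPM against 48.8 and 42.4 CPM (1.01, adjusted p = 0.0281) and H2-D1, whose near-identical relatives make its counts uncertain, at 331 and 332 CPM against 596 and 626 CPM (0.88, adjusted p = 0.00531).

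**Figure D4:**
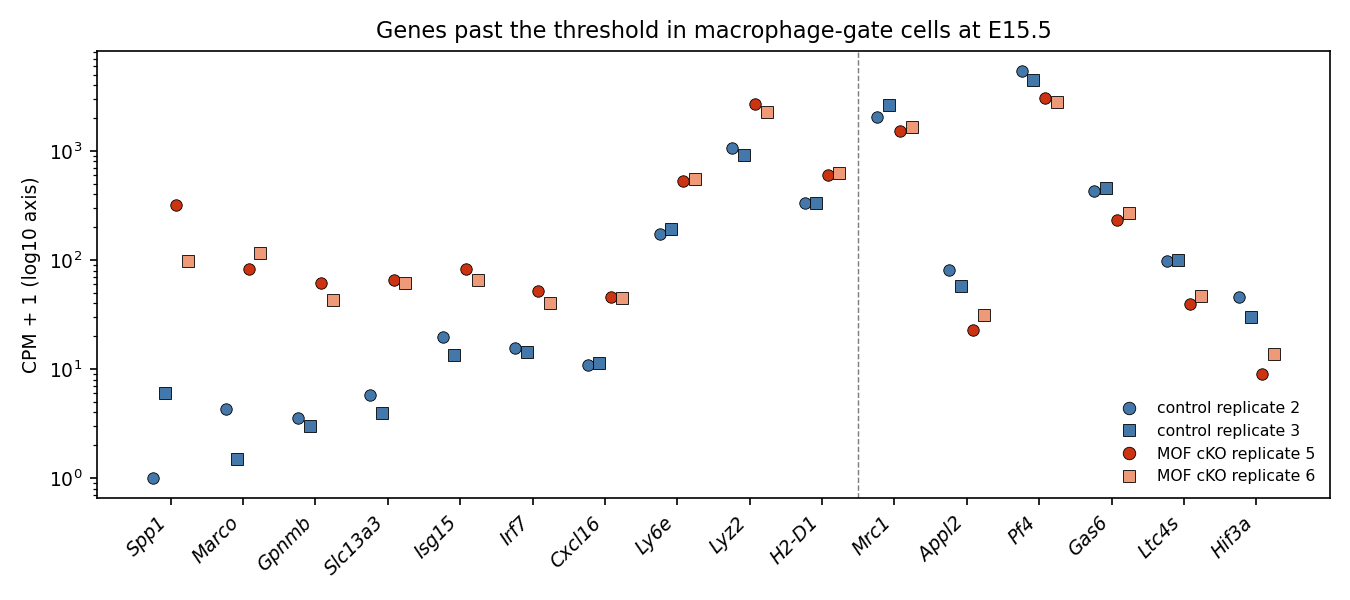
CPM + 1 (y axis, log10 scale) of 16 genes in macrophages, with a point for each of the 4 E15.5 libraries (colours). Both MOF cKO libraries lie above both controls in the first 10 genes, from Spp1 to H2-D1, and below them in the last 6.

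The interferon genes were also examined in the other compartments, where 1 was called. In fibroblasts, 24 of 30 members lay above both controls and none below (26.3% of all genes above), with medians of 0.962 in cKO5 and 0.299 in cKO6. Isg15 was at 1.27 and 1.93 CPM in control fibroblasts and 12.1 and 3.40 CPM in MOF cKO fibroblasts (2.26 ± 0.64, adjusted p = 0.230), so that it lay above the controls mostly in cKO5. Without cKO6 it was called in fibroblasts (2.93, adjusted p = 0.021), and in the E16.5 fibroblasts it rose from 4.45 and 1.33 CPM to 164 and 93.5 CPM (5.78, adjusted p = 0.024). In the same E16.5 fibroblast sums, macrophage markers were at 25.2 and 42.6 CPM in controls and 83.0 and 305 CPM in MOF cKO, and monocyte and neutrophil markers at 17.7 and 32.6 CPM against 145.5 and 179 CPM, whose part was not tested. In endothelial cells, 12 of 25 members lay above both controls and 1 below (22.6% of all genes above), with medians of 0.449 and 0.151, and Irgm1 was called. In the epithelium, 12 of 25 lay above and 7 below (median 0.39). The members' summed level was lower there, at 279 and 278 CPM in controls and 179 and 214 CPM in MOF cKO. Monocyte and neutrophil markers at E15.5 were at 29.0 and 12.2 CPM in control and 50.4 and 34.5 CPM in MOF cKO fibroblasts. In endothelial cells they were at 38.4 and 16.25 CPM against 142 and 97.4 CPM. Macrophage markers overlapped between groups in both compartments. The part of the monocyte and neutrophil markers in the interferon values was not tested. All 4 compartments come from the same 4 libraries and so share their controls, and RNA that passed between compartments as free RNA was not estimated.

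Other genes of macrophage function were called in both directions. Of 34 macrophage function genes, 5 were called higher and 3 lower, and 18 lay above and 9 below both controls (median 0.19). Mrc1, the mannose receptor of resident dermal macrophages, fell from 2063 and 2627 CPM to 1523 and 1661 CPM (-0.55, adjusted p = 0.0424). Pf4, a chemokine that these cells express strongly, fell from 5392 and 4461 CPM to 3075 and 2807 CPM (-0.75, adjusted p = 0.0281). Gas6, a bridging ligand for the uptake of dead cells, fell from 428 and 454 CPM to 230 and 268 CPM (-0.82, adjusted p = 0.01). Ltc4s, the leukotriene C4 synthase, fell by 1.20 on the log2 scale (96.6 and 98.5 CPM to 38.6 and 46.2 CPM), Hif3a by 1.85 (45 and 28.9 CPM to 8.01 and 12.8 CPM) and Appl2, an endosomal adaptor, by 1.42 (80.5 and 57.2 CPM to 21.8 and 30.3 CPM). In the smaller number of cells without monocyte or neutrophil UMIs, Mrc1 (-0.35, adjusted p = 0.162), Pf4 (-0.50, adjusted p = 0.161) and Gas6 (-0.52, adjusted p = 0.0508) kept a negative value and did not pass, whereas Ltc4s, Hif3a and Appl2 were called. Of a list of chemokine, cytokine and NF-kB genes that does not hold Pf4, 27 were tested and 4 called, each higher. Cxcl16, a scavenger receptor and chemokine, rose from 9.88 and 10.5 CPM to 44.4 and 44.1 CPM (2.12, adjusted p = 0.0017), and Il1rn, the interleukin 1 receptor antagonist, from 11.7 and 10.5 CPM to 41.3 and 35.7 CPM (1.78, adjusted p = 0.00764). Saa3, an acute phase protein, rose from 8.05 and 0.497 CPM to 25.0 and 50.1 CPM (2.96, adjusted p = 0.0482), but did not pass in cells without monocyte or neutrophil UMIs (0.42, adjusted p = 0.889), and Tnfaip2 also passed (adjusted p = 0.0499), and not in those cells (1.43, adjusted p = 0.212). Of 25 glycolysis and hypoxia genes 4 were called, all higher. They were Ldha (0.52, adjusted p = 0.0339), Aldoa, Pkm (0.53, adjusted p = 0.0424) and the lactate exporter Slc16a3 (1.43, adjusted p = 0.0197), which went from 12.1 and 10.5 CPM to 31.1 and 30.3 CPM. In cells without monocyte or neutrophil UMIs, Aldoa and Pkm were called again and Ldha (0.46, adjusted p = 0.0602) and Slc16a3 (1.299, adjusted p = 0.0602) were not.

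Transcripts of other cells were also counted in macrophages. Of the 8 monocyte and neutrophil markers, 1 was at 0. They summed to 1243 and 1037 CPM in control and 3104 and 2668 CPM in MOF cKO macrophages. Most of this sum was Lyz2, whose rise is given above. A UMI of the filter genes named above, without Lyz2 and Ccr2, was held by 19.8% and 10.7% of control macrophages. In MOF cKO macrophages these shares were 38.1% and 33.8%. Restricted to the cells without such UMIs (154 and 108 control and 153 and 172 MOF cKO cells), the test called 81 genes, 127 of the 129 earlier calls that could be tested kept their direction and 65 of them were called again, 7 interferon genes included. Haemoglobin and other erythroid markers did not separate the groups and summed to 62080 and 23360 CPM in control and 35120 and 13990 CPM in MOF cKO macrophages. The 6 melanocyte markers, none at 0, summed to 27.1 and 43.3 CPM in control and 64.1 and 93.9 CPM in MOF cKO macrophages (4 above both controls, median 1.70 over 5 tested), and their part in the rise of Gpnmb, which melanocytes also express, was not tested. The 12 epithelial markers summed to 1528 and 439 CPM in control and 385 and 565 CPM in MOF cKO macrophages, and 9 of them had negative fold changes (median -0.69), with Perp called lower and the suprabasal keratins Krt1 and Krt10 called higher. Krt1 was at 2.56 and 21.4 CPM in control and 63.6 and 65.3 CPM in MOF cKO macrophages, next to 259 to 830 CPM in the epithelium. Whether these keratin transcripts were taken up, free or from doublets was not tested. Ifi202b, of a family with near-identical copies, fell from 177 and 89.5 CPM to 4.61 and 2.33 CPM in macrophages (-5.28 ± 0.42), while in the epithelium it was at 6.61 and 28.4 CPM in controls and 201 and 63.0 CPM in MOF cKO. The count of calls depended on a control. Without control 3 it was 24, without control 2 it was 65, and without either MOF cKO library it was 93 or 206.

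The macrophage calls were carried to the E16.5 libraries, which were made from other embryos with an earlier chemistry and did not enter the E15.5 test. No gene of 7198 passed there (0%), with 33 and 45 control and 59 and 119 MOF cKO macrophages, and 1055 had an unadjusted p under 0.05. Of the 104 genes higher at E15.5, 97 were tested, 95 had the same direction and 68 had an unadjusted p under 0.05 in that direction, against 50.2% and 8.82% of all genes tested. Of the 33 lower genes, 30 were tested, 29 had the same direction and 24 had an unadjusted p under 0.05, against 49.8% and 5.84% of all genes. No call had an unadjusted p under 0.05 in the opposite direction. The monocyte and neutrophil markers differed in these libraries too. They were at 1312 and 1370 CPM in control 1 and 2, and at 10780 and 6391 CPM in MOF cKO 1 and 2. A UMI of the filter genes named above was held by 9.09% and 11.1% of these control macrophages, against 81.4% and 63.0% in MOF cKO. The part of these markers in the E16.5 values was not tested. In the other compartments at E15.5, the 104 higher genes had medians of 0.44 in the epithelium (79 tested), 0.33 in fibroblasts (94 tested) and 0.59 in endothelial cells (69 tested), and 83 of the 104 were highest in macrophages. The 33 lower genes had medians of 0.04, -0.04 and -0.13 in these compartments.

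**Figure D5:**
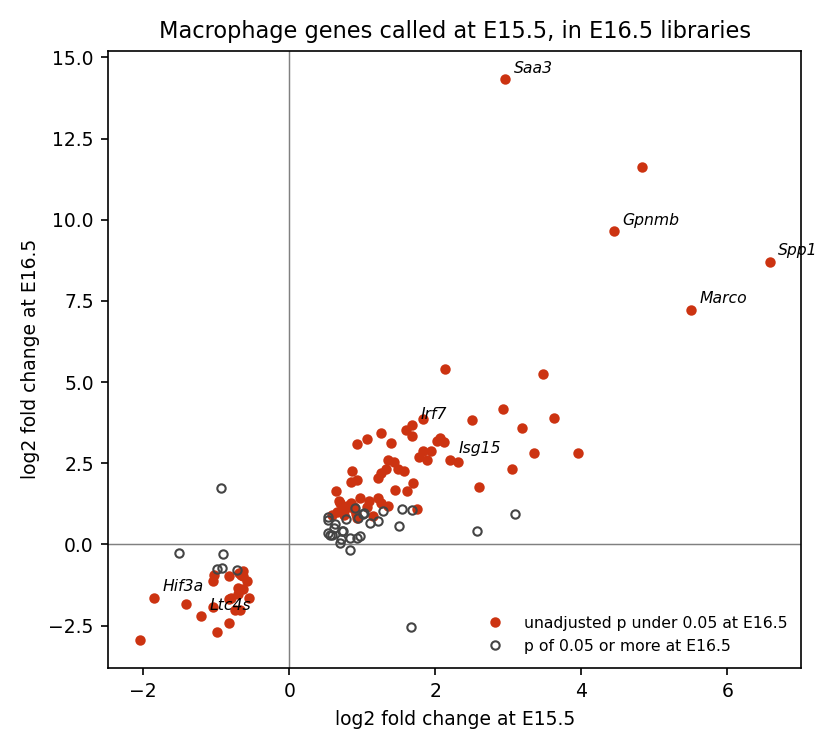
Log2 fold change in macrophages at E15.5 (x axis) and at E16.5 (y axis) for the 127 genes called at E15.5 and tested at E16.5, with those of unadjusted p under 0.05 at E16.5 in red. Of these genes 95 of 97 higher and 29 of 30 lower at E15.5 kept their direction.

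In endothelial cells, 10 of 10384 genes were called (0.0963%), 8 higher (0.077%) and 2 lower (0.0193%). With cells in a second gate left out, 47 of 9661 genes were called, 17 higher and 30 lower. The 2 genes that fell in the main test belong to arteries or to retinoid handling in vessels. Gja4, a connexin of arterial endothelium, fell from 71.9 and 79.0 CPM to 29.7 and 22.7 CPM (-1.45 ± 0.18, adjusted p = 0.021). Rbp7, a retinol-binding protein, fell from 47.8 and 81.7 CPM to 7.78 and 3.84 CPM (-3.32 ± 0.34, adjusted p = 0.0129). Efnb2, an arterial ephrin, was at 123 and 120 CPM in controls and 67.5 and 75.3 CPM in MOF cKO and did not pass (adjusted p = 0.0672). Gja4 and Rbp7 had differences of -0.18 and 0.17 at E16.5. Of 31 genes of endothelial function, 13 lay below and 5 above both controls, against 19% and 22.6% of all endothelial genes (41.6% in either direction). The make-up of the sum differed as well, since 6 lymphatic endothelial markers, 1 of them at 0, were at 680 and 688 CPM in controls and 582 and 217 CPM in MOF cKO, and 7 erythroid markers, none at 0, at 8700 and 12000 CPM against 22330 and 19570 CPM. The part of either in the endothelial changes was not tested.

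Of the 8 endothelial rises, 4 were in matrix genes whose levels were far higher in fibroblasts. Col1a1 and Col1a2, chains of type I collagen, rose by 1.25 (280 and 284 CPM to 598 and 705 CPM) and 1.28 (284 and 323 CPM to 710 and 716 CPM), Col3a1, of type III collagen, by 1.13 (adjusted p = 0.0129) and Dcn, the proteoglycan decorin, by 0.87 (adjusted p = 0.0193). Col1a1 was at 5954 and 5758 CPM in control and 6866 and 7504 CPM in MOF cKO fibroblasts. These 4 genes are among the 10 fibroblast markers, and the other 6, none at 0 and none called, summed to 157 and 163 CPM in control and 222 and 319 CPM in MOF cKO endothelial cells. Their part in the 4 rises was not tested. Endothelial cells in a second gate were 13 of 125 in control 2, 13 of 115 in control 3, 41 of 255 in cKO5 and 38 of 152 in cKO6. When these were left out, Col1a1 (0.73), Col1a2 (0.38), Col3a1 (0.28), Dcn and Meg3 lost their calls. Where the second gate was that of fibroblasts, cells were left out by their Col1a1 and Col3a1 UMIs. Lower values of these 2 genes then follow from the rule itself. The value of Meg3 changed sign (-0.21), and Ifi27l2a had too few counts for a test. Gja4 (-1.38), Rbp7 (-3.22), Irgm1 (1.05) and Actc1 kept their calls. All 4 lost them with 1 spread per gene for all compartments. Irgm1 and Actc1 also lost theirs with equal numbers of cells, Irgm1 with DESeq2 and Actc1 with stricter gates. Gja4, Irgm1 and Actc1 lost theirs at under 5% mitochondrial UMIs and without the upper limit on genes. Irgm1 rose from 32.1 and 29.9 CPM to 59.7 and 64.1 CPM (1.04, adjusted p = 0.0447). Ifi27l2a, an interferon-induced gene, rose from 1 and 0 UMIs in the control sums to 59 and 42 UMIs in MOF cKO, next to 237 to 798 CPM in macrophages. Actc1, cardiac actin, rose from 0.893 and 1.32 CPM to 14.7 and 12.5 CPM. It is 1 of 7 markers of muscle cells, 2 of them at 0 here, which together went from 10.3 and 8.34 CPM to 29.3 and 27.9 CPM in endothelial cells, from 14.6 and 21.9 CPM to 82.0 and 28.2 CPM in macrophages, from 4.98 and 2.12 CPM to 25.4 and 8.67 CPM in the epithelium and from 20.5 and 28.6 CPM to 39.4 and 45.2 CPM in fibroblasts. Their part in this rise was not tested. Leaving out cKO6 left 0 calls and leaving out cKO5 gave 32.

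In fibroblasts, the largest compartment, no gene of 16266 passed (0%), 2537 (15.6%) had an unadjusted p under 0.05, and DESeq2 called 493. Without cKO6 the same test called 114 genes (0.692%), with 0.431% higher and 0.261% lower, and without cKO5 it called 1 (0.00609%). The groups did not overlap for 48.9% of genes. The genes with the smallest p differed little between replicates and modestly between groups. Mest, an imprinted gene of growing mesenchyme, was at 251 and 253 CPM in controls and 357 and 380 CPM in MOF cKO (0.52 ± 0.05, adjusted p = 0.181), and the growth factor Ptn at 261 and 245 CPM against 367 and 398 CPM (0.57). Lama4, a laminin chain, was at 93.7 and 90.9 CPM against 124 and 131 CPM (0.44). Mest and Lama4, whose levels were higher in endothelial cells (2264 and 2094 CPM in controls for Mest), rose in the E16.5 fibroblasts, where 4.64% of genes were called and 2.21% were lower (1.07, adjusted p = 0.036, and 0.99, adjusted p = 0.029). Endothelial markers also lay higher in MOF cKO fibroblasts, with 34.2 and 33.2 CPM against 51.1 and 41.3 CPM at E15.5 (7 of 11 above both controls, median 0.74) and 45.1 and 43.9 CPM against 78.3 and 73.5 CPM at E16.5 (median 1.24, Pecam1 called higher), and their part in these values was not tested. In the other direction, Errfi1, a feedback inhibitor of EGF receptors, was at 60.2 and 62.3 CPM in controls and 40.5 and 38.9 CPM in MOF cKO (-0.65), and rose at E16.5 from 14.1 and 10.5 CPM to 50.8 and 38.0 CPM (adjusted p = 0.028). Cdkn1a was at 86.5 and 81.4 CPM in controls and 59.1 and 59.9 CPM in MOF cKO fibroblasts (-0.52). Collagen and matrix genes lay above both controls for 20 of 29 members and below for 1 (median 0.15), and Wnt and BMP targets of the upper dermis lay below for 13 of 26 and above for 3 (median -0.23).

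The mean change over the compartments was tested with limma on each library's mean log2 CPM over the 4 compartments. A call on this mean can rest on fewer than 4 compartments. The limma test called 19 of 15486 genes (0.123%), 16 higher (0.103%) and 3 lower (0.0194%), while 2225 (14.4%) had an unadjusted p under 0.05. The count depended on the settings, with 0 genes called when cells in a second gate were left out, 5 with equal numbers of cells and 7 with gates set as shares of UMIs. It was 4 without control 3 and 66 without control 2. The adjusted p was 0.0434 for each gene but Lox (0.0491). The genes given with all their levels were chosen after these were seen. Atf3 fell by 0.84 ± 0.08 on average, and was lower in both MOF cKO libraries of every compartment. It was at 294 and 278 CPM in control and 217 and 191 CPM in MOF cKO fibroblasts, 267 and 247 CPM against 188 and 133 CPM in endothelial cells, and 822 and 646 CPM against 593 and 568 CPM in macrophages, beside the larger epithelial difference given above. At E16.5 it rose in endothelial cells (2.29, adjusted p = 0.0086), where macrophage markers went from 48.1 and 97.8 CPM in controls to 2774 and 6554 CPM in MOF cKO, 9 of 10 tested called higher, and their part in the rise was not tested. Egr3 fell by 0.74, and lay below both controls in all 4 compartments. Of the 28 AP-1 and immediate early genes tested for the mean, all 28 had negative values (median -0.31), and Atf3 and Egr3 were the calls.

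Slc15a2, a peptide transporter, fell by 1.69 ± 0.18. It was at 27.5 and 33.2 CPM in control and 8.37 and 7.40 CPM in MOF cKO epithelium, 3.08 and 2.90 CPM against 1.40 and 1.04 CPM in fibroblasts, 13.8 and 7.03 CPM against 1.27 and 1.60 CPM in endothelial cells and 16.8 and 15.9 CPM against 7.04 and 5.36 CPM in macrophages. Both MOF cKO embryos were low in every compartment, the mosaic one included. Among the rises, Spp1 (3.23), Gpnmb (2.59), Bcl2a1a (2.32), Iigp1 (2.28), Cxcl16 (2.02), Clec4n (1.66), Ifi27l2a (1.63), Lgals3bp (1.43), Ifi207 (1.34), Lgals3 (1.20) and Ctsc (0.82) are known from phagocytes or the interferon response, and Vcan (0.74) and Lox (0.67) from the matrix. Not all of these lay above both controls in every compartment. The groups overlapped for Lgals3 and Ifi27l2a in the epithelium and for Lgals3, Spp1 and Ctsc in fibroblasts. They also overlapped for Bcl2a1a and Iigp1 in endothelial cells and for Lox in macrophages. Ifi27l2a had a fold change of 0.08 in the epithelium and 5.57 in endothelial cells. Clec4n, a C-type lectin receptor, shows the levels behind such a mean. It was at 85.2 and 79.1 CPM in control and 256 and 191 CPM in MOF cKO macrophages, but at 0.22 to 1.19 CPM in the epithelium and 0.319 to 1.06 CPM in fibroblasts. Bcl2a1a, Iigp1 and Ifi207 have near-identical relatives, so their counts are uncertain. Meg3 (0.70) and Rian (0.65), noncoding RNAs of the imprinted Dlk1 region, were highest in fibroblasts. Meg3 was at 2466 and 2429 CPM in control and 3234 and 3305 CPM in MOF cKO fibroblasts, and at 141 and 130 CPM against 272 and 187 CPM in the epithelium. Markers of other cells lay higher in the MOF cKO epithelial sums too. The 10 fibroblast markers, none at 0, summed to 1999 and 1892 CPM in control and 2737 and 2545 CPM in MOF cKO epithelium, with 8 above both controls, and 9 of 11 endothelial and 6 of 6 melanocyte markers lay above both controls. Their part in these rises of the mean was not tested.

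By counting alone, 328 of 9512 genes (3.45%) did not overlap between groups in the same direction in all 4 compartments, with 153 higher (1.61%) and 175 lower (1.84%). With library sizes in place of TMM factors the split became 95 higher and 250 lower. The genes named here reached 30 CPM in a group of every compartment and were ranked by their smallest fold change over compartments. Ifitm3, an interferon-induced membrane protein, was at 371 and 226 CPM in control and 940 and 744 CPM in MOF cKO macrophages, where it was called (1.49, adjusted p = 0.0197), and at 189 and 203 CPM against 501 and 253 CPM in fibroblasts. Xbp1, a factor of the secretory pathway, was at 90.7 and 96.6 CPM in control and 117 and 116 CPM in MOF cKO fibroblasts. Washc3, a subunit of the endosomal WASH complex, lay lower in all 4 compartments (mean -0.88, adjusted p = 0.0526). It was at 37.4 and 36.7 CPM in control and 5.90 and 19.4 CPM in MOF cKO epithelium, and at 105 and 78.1 CPM against 54.1 and 59.0 CPM in macrophages, where it was highest. Mgst3, a microsomal glutathione transferase, was at 105 and 101 CPM in control and 48.1 and 82.8 CPM in MOF cKO epithelium, and at 103 and 92.6 CPM against 64.4 and 78.0 CPM in fibroblasts. Idi1, an enzyme of sterol synthesis, was at 143 and 113 CPM in control and 69.0 and 79.4 CPM in MOF cKO fibroblasts (-0.81). Of the 16 genes named by this count, only Meg3 and Atf3 passed the test of the mean over compartments.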

How the data were processed

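Single-cell RNA sequencing was analysed in the E15.5 libraries of 2 control and 2 MOF cKO embryos, with 2 and 2 libraries at E16.5 as a separate readout. Per the labels, the deposited values are raw UMI counts for each gene in each cell barcode, and the authors made them with Cell Ranger (versions 1.3.1 and 6.1.2 in the submitters' processing notes) on mm10 and had restricted the barcodes to called cells. E16.5 used the 3′ v2 chemistry and another gene set, so groups were compared within a stage only.

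Cell filters and gates are given above. No doublet caller was run, and cells in more than 1 gate were removed as an alternative. UMI sums were filtered (filterByExpr), scaled with TMM and tested with edgeR 4.0.16 quasi-likelihood fits, 1 per compartment. The epithelial contrast used 16 sums with library and compartment terms, and the mean over 4 compartments used limma 3.58.1 on log2 CPM (prior count 2). DESeq2 1.42.0 was an alternative. Shares were compared by exact permutation tests in Python 3.11.15. The code was tested on simulated data. Replicates are separate embryos. Intervals cover counting error only. Named genes were members of the lists and, outside the genes that set the gates, in each compartment the 5 largest rises and 5 largest falls that were called, did not overlap and reached 30 CPM (or, where fewer were called, the smallest p). For the epithelial contrast they were up to 6 genes of smallest p per direction, and for shared direction the 8 largest rises and 8 largest falls. The members and lists were chosen with earlier results of these data known. Some genes counted among the calls are not reported here by name.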

Additional observations from a re-analysis of the deposited data

Results flagged for a closer look

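Differences between the epithelial change and that of 1 other compartment were tested in the fit of the 16 sums, and 7 genes had an adjusted p under 0.05 (edgeR quasi-likelihood test). They were 2 of 15486 genes against fibroblasts, 5 against macrophages and 0 against endothelial cells. These comparisons use the same 4 libraries.

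Casz1, a zinc finger factor, differed between epithelium and fibroblasts by -2.16 (adjusted p = 0.0354). It was at 21.3 and 17.4 CPM in control and 6.39 and 7.89 CPM in MOF cKO epithelium, and at 6.26 and 9.49 CPM against 15.7 and 13.1 CPM in fibroblasts. 2010001K21Rik differed by 7.92 between these compartments (adjusted p = 0.0354), and its level was far under that of Casz1 in fibroblasts, so the value rests on few UMIs.

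Against macrophages, Ly6e, an interferon-induced surface protein, differed by -1.54 (adjusted p = 0.00439) and rose in macrophages from 171 and 192 CPM to 529 and 549 CPM. H2-D1 differed by -1.34 (adjusted p = 0.00837), with 38.3 and 33.6 CPM in control and 20.4 and 26.3 CPM in MOF cKO epithelium. Ifi204 differed by -2.23 (adjusted p = 0.0288) and Ifi202b by 8.45 (adjusted p = 0.011), both from a family with near-identical copies. Ttc28 differed by 1.51 (adjusted p = 0.011), since it fell in macrophages from 67.3 and 71.6 CPM to 35.9 and 33.8 CPM and was at 32.4 and 31.3 CPM in control and 40.8 and 39.5 CPM in MOF cKO epithelium.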

How the results depend on the processing

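The share of epithelial cells kept its direction under each alternative (-16.1 to -21.2 percentage points). Counts of genes called at E15.5 moved with the processing, and the cause was not tested beyond what each setting changes. In macrophages (137 in the report) they were 669 without the filter on low counts, 231 for cells in 1 gate only, 81 without monocyte or neutrophil UMIs, 56 without the upper limit on genes, 52 at under 5% mitochondrial UMIs, 8 with 1 spread per gene for all compartments, and 24 to 206 with a library left out. In endothelial cells (10) they were 71, 47 (1 gate only), 39 (equal number of cells), 37 (stricter gates), 25 (library sizes alone), 16 (DESeq2), 0 (1 spread) and 0 to 32 with a library left out. In the epithelium (0) they were 194 (1 spread), 132 (DESeq2), 1 (no filter) and 1 to 7013, and in fibroblasts (0) 493 (DESeq2), 222 (no filter), 1 (1 spread), 1 (no upper limit) and 0 to 114. The epithelial contrast (0) gave 192 without the filter, 34 at under 5% mitochondrial UMIs, 7 with equal cells and 0 to 3834. The mean over 4 compartments (19) gave 397 with edgeR on the 16 sums, 65 with library sizes alone, 9 without the upper limit, 7 with gates as shares of UMIs, 5 with equal cells, 0 in 1 gate only, 0 without the filter and 4 to 66. Library sizes alone moved the median of all epithelial genes from -0.01 to -0.13. Of the genes named, 68 were refitted in 934 alternative fits, and only Meg3 in endothelial cells reversed (-0.21, 1 gate only), while 65 fits lost the call and 138 gained it. The missing upper limit, stricter gates, cells without monocyte UMIs and crossed block were chosen after seeing the data. No paired analysis was possible at E15.5 because the groups share no replicate numbers. At E16.5 the deviations of same-numbered samples correlated at -0.21 over 3810 genes, so the numbers are not shown to pair samples. The replicate block changed calls from 578 to 549 in the epithelium, 583 to 576 in fibroblasts, 298 to 297 in endothelial cells and 0 to 0 in macrophages. The crossed pairing gave 986, 651, 505 and 3. Leaving out a library gave 39 to 1111, 0 to 369, 343 to 475 and 0 to 55. Depth limits the endothelial and macrophage sums, the smallest of the 4 compartments.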
